A study of Mus musculus with 142 samples.

Results

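In 6 of the 53 clones with replication timing (RT) profiles, the castaneus (CAST) copy of chromosome 11 had no value in any of its 2442 windows of 50 kb. These clones were chosen by that absence alone, and the values of the homologous musculus chromosome 11 played no part in the choice. They came from 4 of the 26 cell lines with profiles and from 8 of the 66 libraries. The lines were ∆A.B.COSN123 (clones 2E.1 and 5A.7, each with 2 cultures), ∆AOSN.COSN12 (clone F3), ∆BOSN1.COSN123 (clones C4 and E6) and ∆BOSN12.COSN123 (clone A2). The other 47 clones had a CAST chromosome 11 and serve as the comparison.

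All clones derive from F121-9, a hybrid mouse embryonic stem cell (mESC) line from an F1 cross of castaneus with musculus mice, grown in 2i and LIF. Each carries CRISPR-mediated deletions in the Dppa2/4 domain of chromosome 16, within the early replication control elements (ERCEs) A, B and C or at the OSN site Z upstream of A. OSN stands for sites bound by Oct4, Sox2 and Nanog, and TSS for transcription start sites. The deletions of the 6 clones lie on the musculus homolog of chromosome 16, and in clone 5A.7 the B deletion is on CAST as well. ∆A.B.COSN123 lacks the full A and B elements and all OSN sites of C, and ∆AOSN.COSN12 lacks the OSN site of A and the OSN sites 1 and 2 of C. ∆BOSN1.COSN123 lacks OSN site 1 of B and all OSN sites of C, and ∆BOSN12.COSN123 lacks both OSN sites of B in addition. The 47 other clones carry single or combined deletions of the same elements, OSN sites or TSSs, and 25 of them belong to lines named COSN12 or COSN123, as do all 6 clones without a CAST chromosome 11. Among the 47, ∆CR11.8k clone 50 and ∆CTSS clone C4 carry the deletion on CAST instead of musculus. Others have 1 deletion on CAST as well, among them ∆AOSN.B.COSN123 clones 2A.2, 3C.4 and 5A.6 (B). The same holds for the ∆ATSS.BTSS.CTSS clones (TSS of A) and ∆BTSS.CTSS clone C11 (TSS of B). No clone with an unmodified Dppa2/4 domain was in the comparison. The lines share ancestry, since the study made several of them by further deletion in ∆COSN123, whose profiled clone (A10) had a CAST chromosome 11. The clones may therefore not be independent of each other, and p-values measure the spread between these clones.

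E/L Repli-seq labels replicating DNA with BrdU (2 h), sorts cells into early and late S-phase fractions and sequences the labelled DNA of both. RT is given as log2(E/L), the log2 of early over late reads, so that a window above 0 replicates early and one below 0 late. Chromosomes are built of domains that replicate at a characteristic time, early domains being mostly gene-rich and open and late domains gene-poor. The homologs of a hybrid cell can be read apart wherever they differ in sequence, and in some regions they replicate at different times. Loss or duplication of whole chromosomes is a known event in cultured mESCs, and a deletion clone grows from a single cell, so that such an event can mark every cell of a clone. A ratio of early to late reads does not count chromosomes. Loss of the CAST homolog with 1 copy of musculus left, its replacement by a further musculus copy, and values blanked before deposition cannot be told apart from these data. Clones "without a CAST chromosome 11" and a "remaining" or "missing" homolog therefore refer here only to the absence of values.

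All 6 clones carry the deletions of OSN sites 1 and 2 of ERCE C, made with pairs of guide RNAs that cut in introns of Morc1 on chromosome 16. Each designed guide is printed 5′ to 3′ with its PAM in capitals, to show the engineered sites these clones have in common. In mm10 the guides lie at chr16:48608199-48608221 (+), chr16:48608749-48608771 (−), chr16:48613166-48613188 (−) and chr16:48614737-48614759 (−), in the order given, and all 4 matched the reference sequence there.
C-OSN-2-G1: agagtttgtagaatgctccgGGG
C-OSN-2-G2: acaagcatggtagggcctaaAGG
C-OSN-1-G1: gagtaactcaggcaaaacgtTGG
C-OSN-1-G2: ggaccggccaacctcccttaAGG
The engineered sites are thus on chromosome 16, and whether cutting there had a part in the absence of CAST chromosome 11 was not tested.

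The absence was complete and specific to chromosome 11 on CAST in 5 of the 6 clones. Each of the 6 had a CAST value in 0 of 2442 chromosome 11 windows, while the lowest of the 47 other clones had 1895 (77.6%) and their median was 94.6%. No clone lay between, so no borderline case had to be decided. On the other CAST autosomes the 6 clones had values in a median of 89.7% of windows, with a lowest clone and chromosome of 79.8%. Clone 2E.1 also had no musculus value on chromosome 13. Among the 47 others, 4 clones had no CAST value on 1 chromosome, namely ∆AOSN.B.COSN123 clone 3C.4 (chromosome 13), ∆Z.B.C clones A6 and E5 (chromosome 14) and ∆COSN1.2.8k clone 18 (chromosome 16). Chromosome 11 was therefore the one most often without CAST values, in 6 of the 10 clones that had no CAST value on some chromosome.

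The lines differed in how many of their clones were affected. Both profiled clones of ∆A.B.COSN123 and both of ∆BOSN1.COSN123 had no CAST chromosome 11, and so did the 1 profiled clone of ∆BOSN12.COSN123. In ∆AOSN.COSN12, clone F3 had none and its sister clone G2 had values in 85.5% of CAST chromosome 11 windows. F3 and G2 were the only pair of clones within a line that differed in this respect.

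**Figure D1:**
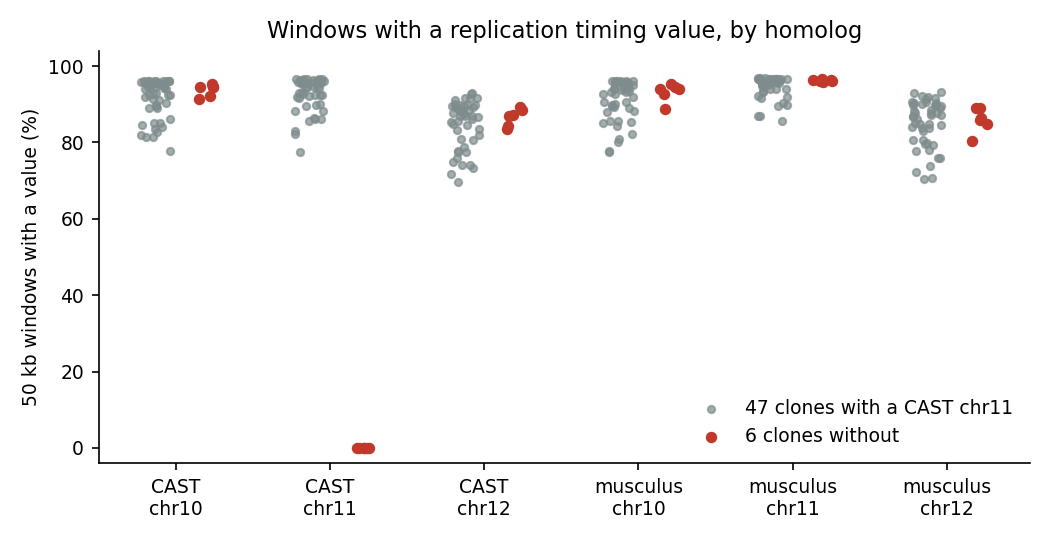
Percent of 50 kb windows with a value, per clone, on CAST and musculus chromosomes 10, 11 and 12. Red points are the 6 clones without a CAST chromosome 11, which sit at 0 on CAST chromosome 11 and between 95.9% and 96.6% on musculus chromosome 11, and grey points are the 47 other clones.

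The musculus chromosome 11 was measured at least as fully in the 6 clones as elsewhere. It had values in 95.9% to 96.6% of its windows in the 6 clones, against 85.6% to 96.9% in the others (median 95.9%). Set against chromosomes 10 and 12 of the same clone, the share of musculus chromosome 11 windows with a value was higher by 4.24 points in clone 2E.1, 11.2 in 5A.7, 4.40 in F3, 7.23 in C4, 6.02 in E6 and 6.34 in A2. The mean was 6.57 ± 2.54 points (SD, n = 6 clones) against 6.35 ± 4.21 in the 47 others, and the groups overlapped throughout. The difference of 0.218 points had a 95% interval of −3.27 to 3.68 (two-sided permutation p = 0.907, adjusted p = 0.907 over the 6 values per clone tested here). How many reads a window holds is not given, so this share and the roughness of the profile are the traces of coverage in the values.

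The RT profile of the remaining musculus chromosome 11 was close to that of the 47 other clones. No window of chromosome 11 differed between the 6 clones and the 47 others after adjustment over all autosomes (limma, 0 of 2308 windows, 0%), beside 69 of 36860 windows over all autosomes tested (0.187%). At an unadjusted limma p under 0.05 there were 109 chromosome 11 windows (4.72%), fewer in share than on chromosome 10 (158 of 2201, 7.18%), chromosome 12 (125 of 1766, 7.08%) or over all autosomes (2707 of 36860, 7.34%). The 69 called windows lay on chromosomes 18 (18 windows), 16 (15, the chromosome of the engineered deletions), 1 (11), 5 (11), 8 (8), 17 (4), 7 (1) and 15 (1). Chromosome 13 was not in the fit, since clone 2E.1 had no musculus value there.

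Window by window, the mean profiles of both groups ran together. Across the 2308 windows of chromosome 11 their Pearson correlation was 0.997, as a description over windows that are not independent, and it was 0.994 on chromosome 10 and 0.995 on chromosome 12. The root mean square (RMS) difference between both means was 0.084 on chromosome 11, against 0.099 on chromosome 10 and 0.099 on chromosome 12. This was the lowest RMS difference of the 18 autosomes tested, the next being 0.086 on chromosome 19 and the highest 0.120 on chromosome 16. Early windows, defined below, were 1310 of the 2308 on chromosome 11, against 836 of 2201 on chromosome 10 and 695 of 1766 on chromosome 12. On these chromosomes the differences varied least in early windows, so this rank does not by itself mark out chromosome 11. The mean difference over chromosome 11 was 0.02, and 98.4% of its windows lay on the same side of 0 in both groups.

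The precision of the windows bounds what could have been missed. Differences on chromosome 11 ran from −0.23 to 0.32, and 2291 of the 2308 (99.3%) were under 0.25 in size. The median half-width of the 95% interval was 0.16, and in 2302 windows (99.7%) the whole interval lay within 0.5 of 0, while the mean profile of the 6 clones itself spanned −1.64 to 1.51. In 2307 windows the mean of the 6 clones fell within the range of the 47 others, and in 0 windows did the groups fail to overlap. These counts were not made on other chromosomes, so they do not mark out chromosome 11. The median SD between clones of a window was 0.13 in the 6 and 0.19 in the 47.

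**Figure D2:**
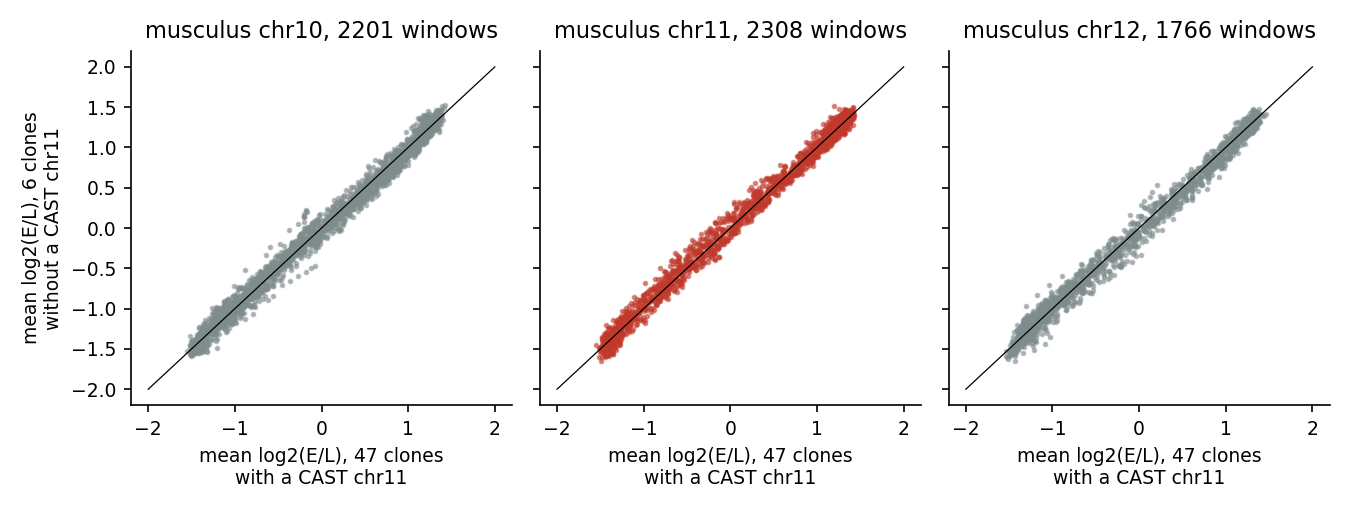
Mean musculus log2(E/L) of the 6 clones without a CAST chromosome 11 (vertical axis) against the mean of the 47 other clones (horizontal axis), one point per 50 kb window, for chromosomes 10, 11 and 12, with the line of equality. On chromosome 11 the points follow the line with an RMS difference of 0.084, against 0.099 on each of the other chromosomes.

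**Figure D3:**
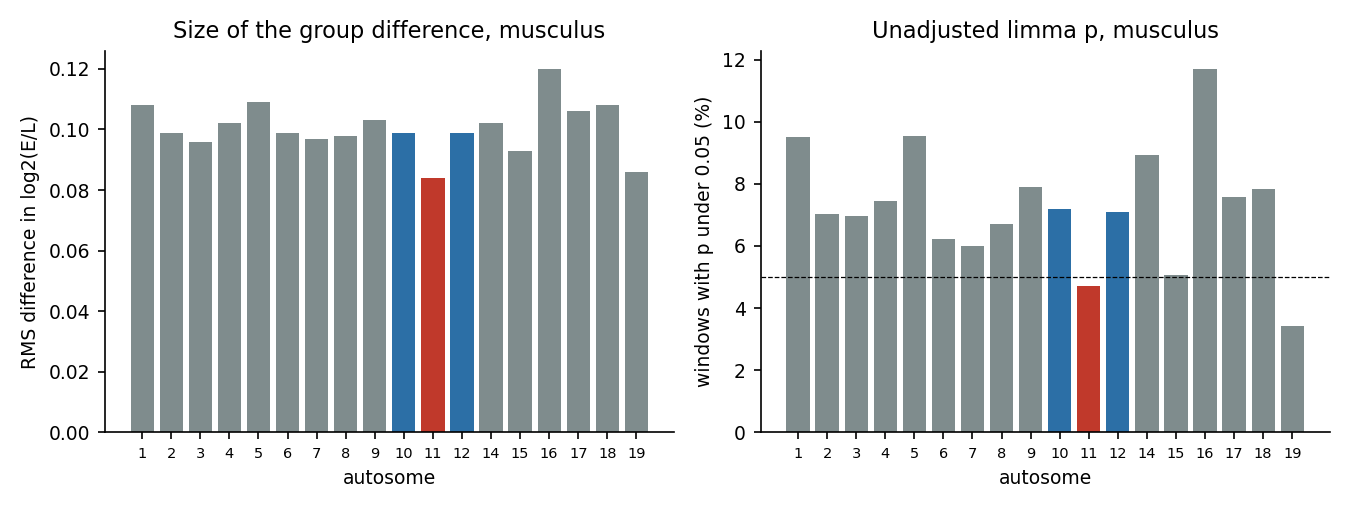
RMS difference between the mean musculus profiles of both groups (left) and percent of windows with an unadjusted limma p under 0.05 (right), by autosome, with a dashed line at 5%. Chromosome 11 (red) has the lowest RMS difference, 0.084, and 4.72% of windows, and chromosomes 10 and 12 are in blue.

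Early and late regions of chromosome 11 kept their separation. The 1310 early windows (mean RT over 0.5 in the 47 clones) averaged 1.18 in the 6 clones and 1.17 in the others, and 23 of them had an unadjusted p under 0.05. The 578 late windows (under −0.5) averaged −1.07 and −1.09, with 38 such p-values, and the 420 windows between averaged 0.02 and −0.00, with 48. Against chromosomes 10 and 12, the share of such p-values was lower in early windows alone (56 of 836 and 39 of 695 there). In late windows it was higher than on either (46 of 776 and 36 of 679). In the windows between, it lay above chromosome 10 (56 of 589) and below chromosome 12. The SD of the differences was 0.06 in early windows of chromosome 11, against 0.09 on chromosome 10 and 0.08 on chromosome 12. In the windows between it was 0.11 on chromosome 11, against 0.11 and 0.12. In late windows it was 0.10 on each of these chromosomes. The means of both groups were also close along the length of chromosome 11. In stretches of 20 Mb, the mean difference was between −0.01 and 0.03. The first 20 Mb, which mixes early and late windows, averaged −0.01 in the 6 clones and −0.02 in the others. The early stretch from 100 to 120 Mb averaged 0.75 and 0.72.

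The 4 chromosome 11 windows with the smallest p held no protein-coding gene, and none passed the adjusted threshold. The smallest was chr11:45500001-45550000, 302 kb from Clint1, a gene for a clathrin adaptor. RT there was 0.12 in clone 2E.1, −0.16 in 5A.7, 0.11 in F3, −0.25 in C4, −0.31 in E6 and 0.02 in A2. The 47 others ran from −0.71 to −0.09 with a median of −0.33, so that C4, E6 and 5A.7 lay inside their range and 2E.1, F3 and A2 above it. The difference was 0.26 (SE 0.07, limma adjusted p = 0.131). The window chr11:45550001-45600000 beside it differed by 0.25 (SE 0.07, adjusted p = 0.184) and chr11:45300001-45350000, 292 kb from the lymphoid transcription factor gene Ebf1, by 0.27 (SE 0.08, adjusted p = 0.203). The last, chr11:63300001-63350000, lay 140 kb from Pmp22, a gene of peripheral myelin, in one of the 14 regions described further on where the homologs differ, and averaged 0.56 ± 0.14 (SD, n = 6) against 0.28 ± 0.19 (n = 47), a difference of 0.27 (SE 0.08, adjusted p = 0.203).

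The comparison was repeated among the lines named COSN12 or COSN123 alone, since all 6 clones belong to these. With 25 other clones left, 215 of 37485 windows were called over all autosomes (0.574%) and 1 of 2329 on chromosome 11. This window, chr11:12850001-12900000, averaged 0.07 ± 0.24 in the 6 clones and −0.25 ± 0.15 in the 25, a difference of 0.32 (SE 0.08, limma adjusted p = 0.0402). Against all 47 clones it differed by 0.25 (adjusted p = 0.381).

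Each clone was then described by values of its whole musculus chromosome 11 relative to its own chromosomes 10 and 12, over windows with a value in every clone (1678 on chromosome 11 and 2736 on the other chromosomes). Mean RT of musculus chromosome 11 was 0.60 in clone 2E.1, 0.55 in 5A.7, 0.46 in F3, 0.46 in C4, 0.45 in E6 and 0.51 in A2, within the range of the 47 others (0.37 to 0.70, median 0.48). Above chromosomes 10 and 12 it stood by 0.35, 0.37, 0.32, 0.28, 0.28 and 0.36 in the same order. The 6 clones averaged 0.33 ± 0.04 (SD) and the 47 others 0.30 ± 0.05. The difference of 0.03 had a 95% interval of −0.02 to 0.07 (two-sided permutation p = 0.229, adjusted p = 0.458). The remaining homolog as a whole was thus neither measurably earlier nor later, and a shift of over 0.07 in either direction was outside the interval.

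The spread between early and late windows was likewise not different beyond the clone-to-clone error. The log2 ratio of the SD over chromosome 11 windows to that over chromosomes 10 and 12 was 0.13 ± 0.02 in the 6 clones (0.10 to 0.16) and 0.12 ± 0.06 in the 47 (−0.07 to 0.20). The difference of 0.01 had an interval of −0.04 to 0.06 (permutation p = 0.753, adjusted p = 0.907).

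Profile distance is the RMS difference between a clone and the mean musculus profile of the other clones. On chromosome 11 it was 0.236 in clone 2E.1, 0.143 in 5A.7, 0.168 in F3, 0.144 in C4, 0.144 in E6 and 0.157 in A2. On chromosomes 10 and 12 the same clones stood at 0.238, 0.162, 0.188, 0.169, 0.172 and 0.186, so that in each of the 6 clones chromosome 11 was no farther from the other clones than its reference chromosomes. Clone 2E.1 was the most distant of the 6 on all of these chromosomes. The log2 ratio averaged −0.18 ± 0.09 (n = 6) against −0.07 ± 0.23 (n = 47), a difference of −0.11 with an interval of −0.32 to 0.10 (permutation p = 0.192, adjusted p = 0.458).

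Roughness, the RMS second difference between neighbouring windows, measures the noise left after smoothing. On chromosome 11 it was 0.072 to 0.122 in the 6 clones and 0.086 to 0.268 in the 47. Its log2 ratio to chromosomes 10 and 12 averaged −0.16 ± 0.08 against −0.06 ± 0.17, a difference of −0.10 with an interval of −0.25 to 0.04 (permutation p = 0.169, adjusted p = 0.458). None of the 6 values per clone passed the threshold, and exact enumeration of all 22957480 regroupings of the clones gave adjusted p-values from 0.458 to 0.906.

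**Figure D4:**
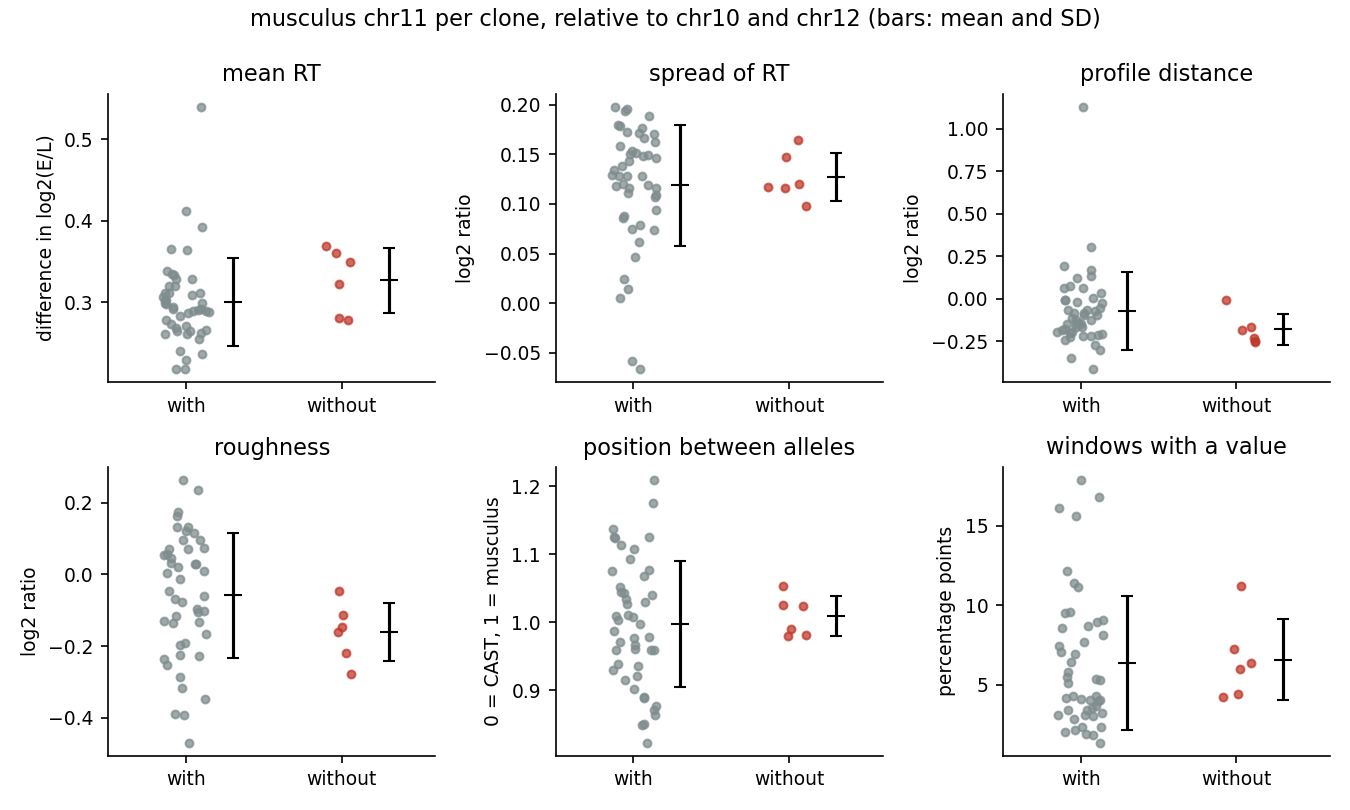
The 6 values of musculus chromosome 11 relative to chromosomes 10 and 12, one point per clone, with the mean and SD of the 47 clones with (grey) and the 6 without (red) a CAST chromosome 11. In every panel the red points lie within the range of the grey ones, and the grey point at 1.13 in the profile distance is ∆AOSN.COSN123 clone B6.

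One clone of the comparison group stood apart on this chromosome. In ∆AOSN.COSN123 clone B6, which has a CAST chromosome 11, the profile distance was 0.257 on musculus chromosome 11 and 0.117 on chromosomes 10 and 12, a log2 ratio of 1.13. Over all windows with a value in this clone, instead of those with a value in every clone, the distances were 0.269 and 0.136, a ratio of 1.98. Its musculus chromosome 11 was earlier than that of the other clones by a mean of 0.23, and its CAST chromosome 11 had a mean difference of −0.07. Leaving this clone out was a choice made after the data were seen. Without it, 0 chromosome 11 windows were called and the difference in mean RT was 0.03 (permutation p = 0.0753, adjusted p = 0.360). Clone B6 was picked for its ratio, the highest of the comparison group, so the lower ratios of the 6 clones say little about them. In distance on musculus chromosome 11 itself, clone 2E.1 (0.236) was close to B6 (0.257).

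Regions where musculus and CAST replicate at different times show most directly which timing the remaining homolog follows. In the 47 clones, 95 windows of chromosome 11 in 14 regions differed between the homologs by 0.5 or more, 58 of them earlier on musculus and 37 earlier on CAST. The mean of the 6 clones was nearer to the musculus level than to the CAST level in 95 of 95 windows. Single clones were nearer to musculus in 90 windows (2E.1), 95 (5A.7), 89 (F3), 90 (C4), 95 (E6) and 87 (A2). That is 95.8% of their values, beside 93.9% of the musculus values of the 47 clones. On a scale where 0 is the CAST level and 1 the musculus level, the clones stood at 0.98, 1.02, 1.02, 0.99, 1.05 and 0.98 in this order, with a mean of 1.01 ± 0.03 against 1.00 ± 0.09 in the 47. The difference of 0.01 had an interval of −0.07 to 0.09 (permutation p = 0.773, adjusted p = 0.907).

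The region with the largest difference between the homologs was chr11:34800001-35600000 (16 windows), over Slit3, a secreted guidance cue for axons, and Spdl1, a spindle protein of the kinetochore. CAST replicated late there, at −0.79 ± 0.19 (SD, n = 47), and musculus in mid S phase, at 0.19 ± 0.22. Where no CAST value was given, musculus stood at −0.01 in clone 2E.1, 0.20 in 5A.7, 0.09 in F3, 0.07 in C4, 0.05 in E6 and 0.18 in A2. All 6 values were above the highest CAST value of −0.24 and inside the musculus range of −0.36 to 0.67.

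In the opposite direction, chr11:7200001-7950000 (15 windows), with the insulin-like growth factor binding protein genes Igfbp1 and Igfbp3, was early on CAST (0.49 ± 0.21) and later on musculus (−0.30 ± 0.18). The musculus homolog of the 6 clones stood at −0.44, −0.26, −0.40, −0.39, −0.55 and −0.30 in the same order of clones, which is below the lowest CAST value of −0.05. It thus stayed on the later side although no CAST copy was read in these cells. The smallest limma adjusted p of a window was 0.849 in the Slit3 region and 0.518 in the Igfbp1 and Igfbp3 region.

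Other regions behaved alike. At chr11:50750001-51250000, over the procollagen peptidase gene Adamts2 and the glutamate receptor gene Grm6, musculus averaged 0.67 ± 0.07 in the 6 clones and 0.70 ± 0.14 in the 47, against 0.02 ± 0.18 on CAST. At chr11:30350001-30650000, over Acyp2, the values were 1.26 ± 0.11, 1.17 ± 0.18 and 0.48 ± 0.20. At chr11:26150001-26550000, with the kinase gene Vrk2 and the Fanconi anaemia ligase gene Fancl, they were 0.40 ± 0.09, 0.22 ± 0.19 and −0.40 ± 0.19.

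**Figure D5:**
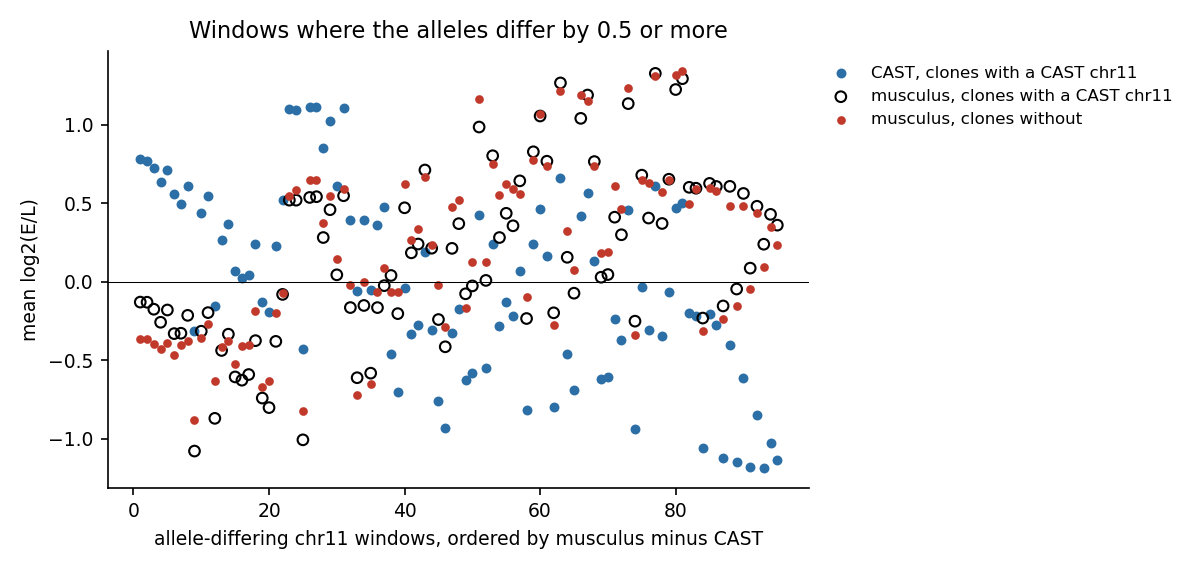
Mean log2(E/L) at the 95 chromosome 11 windows where the homologs of the 47 clones differ by 0.5 or more, ordered by musculus minus CAST. Blue points are CAST and open circles musculus in the 47 clones, and red points are musculus in the 6 clones without a CAST chromosome 11, nearer to the open circle than to the blue point in all 95 windows.

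Genes of chromosome 11 were read through the window that holds their start, for 11 lists with 81 genes. Of these, 79 could be tested, in 67 different windows; Rad51c lay in a window without enough values, and Ca10 was not found under that symbol in the annotation. None of the 79 passed the adjusted threshold, beside 0% of chromosome 11 windows and 0.187% of all windows. Of the 79, 2 had an unadjusted limma p under 0.05, beside 4.72% and 7.34% of these windows. For all 79 the 95% interval of the difference lay within 0.5 of 0, as in 99.7% of chromosome 11 windows. The counts thus do not mark out these genes. Their median difference was 0.00, beside 0.01 over chromosome 11 and 0.01 over all windows tested, and the medians of single lists ran from −0.05 to 0.15, the highest being that of a list of 4 genes not described here (0 called, 0 with an unadjusted p under 0.05).

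LIF acts through Stat3 to hold mESCs in self-renewal, while retinoic acid drives their differentiation. The 7 genes of LIF, STAT and retinoic acid signalling were all early, between 1.24 and 1.38 in the 6 clones. Lif itself, the cytokine that mESCs are grown with, stood at 1.41 in clone 2E.1, 1.38 in 5A.7, 1.51 in F3, 1.28 in C4, 1.25 in E6 and 1.44 in A2, within the 0.83 to 1.95 of the 47 others. Stat3, which carries the LIF signal to the nucleus, and Socs3, its feedback inhibitor, differed between the groups by 0.01 and 0.05 (limma adjusted p = 0.983 and 0.954). Rara, a retinoic acid receptor, and Cdc6, which loads the replicative helicase, start in the same window, and it differed by 0.07 (adjusted p = 0.930).

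Genes of genome maintenance were early too, from 0.77 to 1.37 over 15 tested genes. Trp53, the gene of the tumour suppressor p53, averaged 1.28 ± 0.12 against 1.22 ± 0.27 in the others, and Brca1, which acts in repair by homologous recombination, 1.26 ± 0.18 against 1.21 ± 0.28. Top2a, the topoisomerase that untangles sister chromatids, differed by 0.10 (adjusted p = 0.849). Brip1, the helicase partner of Brca1, had the lowest difference of the lists, 0.77 ± 0.20 against 0.95 ± 0.19 (−0.18, SE 0.08, limma adjusted p = 0.607).

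Imprinted genes of chromosome 11 differ in expression by parent of origin, so a missing homolog would remove 1 parental copy. Grb10, an inhibitor of growth factor signalling, had values of 1.19, 1.33, 1.16, 1.37, 1.15 and 1.41 in 2E.1, 5A.7, F3, C4, E6 and A2, and the 47 others ran from 0.85 to 1.51. The difference was 0.07 (SE 0.07, adjusted p = 0.887). Ddc, next to it, differed by 0.03, and Zrsr1, which lies inside Commd1 and shares its start window, by 0.11 (adjusted p = 0.960 and 0.844).

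Tissue-restricted clusters held their different times. The alpha globin genes Hba-x, Hba-a1 and Hba-a2 share 1 window, with 0.89 ± 0.11 in the 6 clones and 0.94 ± 0.20 in the others. In the type 2 cytokine cluster, Il4 and Il13 were at 1.24 and Il3 and Csf2 at 0.51 and 0.45, each within 0.06 of the other clones. Among these clusters, the chemokine genes spanned the widest times. Ccl2 and Ccl7 were late at −1.13 (others −1.17) and Ccl5 early at 0.95 (others 1.07). The skeletal myosin genes ran from 1.25 at Myh3 to 0.46 at Myh13, against 1.22 and 0.44 in the others. Type I keratin genes ran from 1.35 at Krt14 to −0.02 at Krt23, against 1.40 and 0.03. No member of these 5 lists had an unadjusted limma p under 0.05, beside 4.72% of chromosome 11 windows.

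Among lineage transcription factor genes, Neurod2, a neuronal differentiation factor, had the highest difference of all lists. It stood at 1.35, 1.41, 1.52, 1.57, 1.43 and 1.59 in the same order of clones, inside the 0.59 to 1.64 of the 47 others, and the difference of 0.23 (SE 0.09, limma adjusted p = 0.454) did not pass the threshold. Hoxb1 and Hoxb13, at either end of the Hoxb cluster, were at 1.26 and 1.47, against 1.26 and 1.32. Sox9, which directs cartilage and testis development, lay in mid S phase at 0.02 ± 0.08 against −0.03 ± 0.27.

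The list of long neuronal and adhesion genes held the latest values but was mixed. In the 6 clones it ran from −1.55 at Tenm2 to 1.29 at Msi2. Tenm2, a large synaptic adhesion gene, was at −1.48 in clone 2E.1, −1.33 in 5A.7, −1.61 in F3, −1.61 in C4, −1.74 in E6 and −1.56 in A2, and between −1.94 and −0.97 in the others (41 clones with a value). Gria1, a glutamate receptor gene, was at −1.32 ± 0.13 against −1.45 ± 0.21.

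Near relatives with both homologs were compared pair by pair, as a description. Against ∆COSN123 clone A10, the musculus chromosome 11 of the 5 clones of COSN123 lines had correlations over windows of 0.980 to 0.990 and RMS differences of 0.156 to 0.243. On chromosomes 10 and 12 the RMS differences of the same clones were 0.184 to 0.243. Against its sister clone G2, clone F3 had an RMS difference of 0.153 on chromosome 11 and 0.207 on chromosomes 10 and 12. Repeat cultures of the same clone differed by an RMS of 0.14 in 2E.1 and 0.13 in 5A.7 on chromosome 11, which is below each of the distances between relatives.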

How the data were processed

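The authors labelled F121-9 clones with BrdU, sorted and sequenced early and late S-phase DNA, trimmed reads with TrimGalore, aligned them to N-masked mm10 with bowtie2, split homologs with SNPsplit, and removed duplicates. The deposited values are log2 ratios of early over late reads in 50 kb windows, scaled, quantile-normalized and then smoothed by loess over 300 kb by the authors. Tool versions are not given in the sources used here, and depth is unknown. All 138 columns (66 libraries) were used, and 5 libraries in the labels had no column and were not analysed here. Runs were averaged to libraries and libraries to clones. Windows with a value in all 6 clones and at least 80% of the others were fitted with limma 3.58.1 (R 4.3.3) and adjusted by Benjamini-Hochberg over all autosomes (threshold 0.05). Values per clone were compared by two-sided permutation of clones (100000 resamples), adjusted over 6 values, with 95% intervals from the shifts that the permutation test did not reject. Both were tested on simulated data. Named windows are the 4 with the smallest p on chromosome 11, since none was called, and the gene lists were set by function. The 5 of 14 allele-differing regions with the largest differences are described, and 1 gene list is not reported here. Genes come from GENCODE vM21, guides from the study's table. Members and lists were chosen with earlier results of these data known. Alternatives changed the filter, scaling, units, comparison clones and reference chromosomes. Python 3.11.15 was used with numpy 2.4.6, pandas 2.3.3, numba 0.67.0 and matplotlib 3.10.9.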

Additional observations from a re-analysis of the deposited data

Results flagged for a closer look

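In 84 values with 1 figure for each of the 6 clones, 4 had a clone that lay far from the other 5 by Dixon's ratio, and chance gives about 1 in 20. Clone 2E.1, which also has no musculus chromosome 13, was the most distant in profile distance on chromosome 11 (0.24), and in its ratio to chromosomes 10 and 12, at −0.01 on the log2 scale where the other 5 lay between −0.26 and −0.16. In the window with the start of Top3a, a topoisomerase gene, clone E6 was lowest at 1.24. In the window with the start of Lhx1, a transcription factor of kidney and head development, clone F3 was lowest at 1.12.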

How the results depend on the processing

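Of 16 alternatives of the window comparison, 15 gave 0 called windows on chromosome 11, leaving out each of the 6 clones in turn included, and over 1678 to 2357 windows tested. Limiting the comparison to lines named COSN12 or COSN123, chosen after seeing the data, gave 1. Over all autosomes the calls ranged from 7 (cell line as a fixed block, which rests on clones F3 and G2) to 215 (COSN12 and COSN123 lines alone), and from 38 (without F3; 45 without A2) to 63 without single clones, against 69. In 85 alternatives of the 6 values per clone, none passed the threshold (adjusted p 0.161 to 0.987), and 78 kept their direction. The sign changed for the share of windows with a value (−0.0722 points with complete other clones, −0.0325 with cell lines as units, −0.127 among COSN12 and COSN123 lines). It also changed for the position between the alleles at an allele difference of at least 1 (−0.08), and among COSN12 and COSN123 lines for the spread (−0.01) and the roughness (0.02); the cause was not tested. Without single clones the differences ranged from 0.02 to 0.04 (mean RT), 0.00 to 0.01 (spread), −0.15 to −0.10 (distance), −0.12 to −0.08 (roughness), 0.00 to 0.02 (position) and −0.707 (without 5A.7) to 0.685 points (windows with a value). Distance taken as 1 minus the Pearson correlation had an unadjusted permutation p of 0.0268 (adjusted 0.161), lower in the 6 clones. No paired analysis was possible because clones, averaged over their cultures, carry no shared replicate numbers that would pair the groups; the cell line block compares clones within a line instead.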

Other observations

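Other clones with a missing homolog were measured on the chromosome that remained, and no test was made between these clones. Each remaining chromosome was set against the mean of the 43 clones with every autosome on both homologs, and its distance against that of the clone's other autosomes. For the musculus chromosome 11 of the 6 clones, the log2 ratio of these distances was −0.07 in 2E.1, −0.30 in 5A.7, −0.29 in F3, −0.26 in C4, −0.25 in E6 and −0.23 in A2. It was −0.06 for the CAST chromosome 13 of clone 2E.1 and 0.12 for the musculus chromosome 13 of ∆AOSN.B.COSN123 clone 3C.4. It was 0.05 and −0.01 for the musculus chromosome 14 of ∆Z.B.C clones A6 and E5, and −0.23 for the musculus chromosome 16 of ∆COSN1.2.8k clone 18, which carries engineered deletions. This ratio was not taken for chromosome 11 in clones with both homologs. Relative to chromosomes 10 and 12 alone, the log2 ratio of musculus chromosome 11 in the 47 clones had a median of −0.12 (−0.41 to 1.13). A negative ratio is thus not particular to the 6 clones.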
